A study of Mus musculus with 8 samples.

Results

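The genes followed here are those of programmed cell death: the BCL2 family, the caspases, the apoptosome with its inhibitors, and the death receptors with their adaptors. They were taken from a list of 39 symbols in 6 classes, and each symbol was matched to the Ensembl IDs of the count tables through GENCODE M21. This gave 38 of the 46078 genes counted. Bim has no gene ID of its own, because it is the protein name of Bcl2l11, which is already on the list. Of the 38 genes, 33 had a mean count above 10 over the 8 libraries and were tested. The other 5 (Bcl2a1b, Casp1, Casp4, Casp12 and Fasl) are described by their counts.

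Apoptosis is started by either of 2 routes. In the mitochondrial route, BH3-only proteins such as BIM, NOXA and PUMA occupy or relieve the survival members of the BCL2 family, and the effectors BAX and BAK then open the outer mitochondrial membrane, so that cytochrome c leaves and assembles with APAF1 and caspase 9 into the apoptosome. In the receptor route, ligands of the TNF family cluster receptors that recruit FADD and caspase 8, while c-FLIP (Cflar) holds caspase 8 back and RIPK1 and RIPK3 carry the necroptotic branch. BID links the routes, since caspase 8 cuts it to act on mitochondria. Pluripotent stem cells and early germ cells are known to enter the mitochondrial route readily.

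RNA was sequenced from 4 groups of male (XY) mouse cells on a C57BL/6 background, each as a biological duplicate. The tcESCs are an embryonic stem cell (ESC) line carrying tesco-cfp, in which the testis enhancer core of Sox9 drives cyan fluorescent protein. The tc;Sf1ESCs (XY;tesco-cfp;Sf1) are a G418-selected clone of that line that expresses an Sf1 (Nr5a1) transgene constitutively. Sertoli cell-like cells (SCLCs) are CFP-positive cells sorted at day 12 from the mixed testicular somatic cell-like culture made from tc;Sf1ESCs, so they carry both transgenes. The todPGCLCs are primordial germ cell-like cells sorted at day 6 by GFP and a surface marker (given by the study as CD49f in one place and SSEA1 in another) from organoids that joined XY;Prdm1-gfp cells with tc;Sf1ESC-derived somatic-like cells. Neither the reporter nor the Sf1 transgene of the other groups is in the genotype of the todPGCLCs, and the ESCs of their own line were not analysed here, so a difference between todPGCLCs and tcESCs cannot be told apart from one between lines. Likewise, the Sf1 transgene was followed in 1 clone. The ESCs were in a medium with LIF and a MEK inhibitor and were not sorted (the GSK3 inhibitor CHIR99021 was in the media of all groups), whereas both differentiated groups were dissociated and sorted through a gate for live cells, so differentiation, medium and sorting cannot be told apart in comparisons with ESCs. The comparison of SCLCs with todPGCLCs sets sorted cells against sorted cells, but line, transgenes, day, medium and sort gate differ between them. These cannot be told apart there either. Genes of chromosomes 8, 11 and 16 had median log2 fold changes of 0.54, -0.53 and -0.53 in it, the largest of any chromosome.

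The libraries held 25411033 to 30680191 counts on genes, at which 3 counts are 0.0978 to 0.118 CPM (the count scaled to the library's total). That limit covers counting error only. Libraries of a pair were further apart than counting error gives, least in tc;Sf1ESCs (chi-square per degree of freedom of 1.42) and most in SCLCs (30.02). Nr5a1 had 0.0394 and 0 CPM in tcESCs, 2.01 and 1.08 CPM in tc;Sf1ESCs and 12.9 and 18.4 CPM in SCLCs. Of 9 markers of Sertoli cells, summed to 470 to 477 CPM in SCLCs against 14.5 to 18.7 CPM in ESCs and 119 to 145 CPM in todPGCLCs, Gata4 made up most of the level in SCLCs, Sox9 had 7.77 and 4.47 CPM, and Fshr had no count. Other markers of the list were not highest there: Wt1 had 2.26 and 0.791 CPM in SCLCs against 12.1 and 11.03 CPM in todPGCLCs, Dmrt1 had 35.7 and 13.3 CPM against 99.8 and 122 CPM, and Amh and Dhh stayed at or below 0.756 CPM in SCLCs, within or below the levels of ESCs. The SCLC libraries also held high levels of 9 markers of primitive and visceral endoderm (1860 to 3273 CPM in sum, against 5.31 to 6.56 CPM in ESCs and 29.9 to 39.9 CPM in todPGCLCs), with none at 0. Their 6 mesenchymal markers summed to 1002 to 1029 CPM, against at most 9.14 CPM in ESCs and 49.2 CPM in todPGCLCs. Pdgfra made up most of that sum in SCLCs (735 and 872 CPM). Col1a2 and Pdgfrb of SCLCs overlapped todPGCLCs, and the other members of the list lay above them. In SCLCs the 7 pluripotency markers summed to 590 to 823 CPM, against 4571 to 5121 CPM in ESCs and 2798 to 2889 CPM in todPGCLCs. Each was below the ESC libraries in SCLCs, Klf4 least so (274 and 275 CPM, against 301 and 295 CPM in tc;Sf1ESCs). In todPGCLCs, Sox2 (813 and 820 CPM) and Zfp42 (256 and 251 CPM) lay above all ESC libraries, and the other members below them. The 6 leukocyte markers of SCLCs summed to 54.9 to 55.99 CPM, against 19.4 to 34.0 CPM in ESCs and 23.8 to 25.9 CPM in todPGCLCs, with Ptprc and Adgre1 at 0, and Cd68 made up most of each sum. The 5 endothelial markers of SCLCs summed to 99.9 to 108 CPM, against 118 to 147 CPM in ESCs and 264 to 314 CPM in todPGCLCs. Within that list Pecam1 had 70.5 and 22.7 CPM in SCLCs, 90.5 to 116 CPM in ESCs and 279 and 223 CPM in todPGCLCs, whereas Cdh5 had 29.6 and 70.2 CPM in SCLCs, at most 0.108 CPM in ESCs and 1.31 and 0.678 CPM in todPGCLCs. In todPGCLCs, 10 primordial germ cell markers summed to 1276 to 1324 CPM, against 639 to 839 CPM in ESCs and 543 to 731 CPM in SCLCs, with none at 0. That list holds Prdm1, whose reporter was used in the sort (179 and 194 CPM in todPGCLCs, at most 23.8 CPM in ESCs), and Itga6, which encodes CD49f (227 and 179 CPM, against 116 to 275 CPM). Prdm1, Tfap2c, Dppa3, Dnd1 and Ddx4 were highest in todPGCLCs, and Nanos3, Prdm14, Dazl, Kit and Itga6 were not. Nanos3 had 2.18 and 4.10 CPM in todPGCLCs against 9.10 and 9.07 CPM in tc;Sf1ESCs. Prdm14 had 50.9 and 45.2 CPM against 61.7 and 61.7 CPM in tcESCs, and Dazl 194 and 105 CPM against 171 and 192 CPM. Transcripts that rise when tissue is dissociated (8 genes) summed to 565 to 581 CPM in SCLCs, 286 to 289 CPM in todPGCLCs and 199 to 299 CPM in ESCs. Levels of these markers differed between the groups compared below, and their part in the results was not tested. In bulk RNA, moreover, fewer cells of a type and less RNA per cell cannot be told apart.

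A gene was called when its fold change was greater than 2 with an adjusted p under 0.05 (edgeR quasi-likelihood test, Benjamini-Hochberg over 16707 genes). In tc;Sf1ESCs, 4 of the 33 tested members were lower than in tcESCs and 0 were higher, where 5.85% and 6.13% of all tested genes were lower and higher. Of these members, 9 were higher at an unadjusted p under 0.05 in edgeR, and DESeq2 also called 0 higher. Between SCLCs and tc;Sf1ESCs, 9 members were higher and 5 lower (24.2% and 18% of all genes). The comparison of SCLCs with tcESCs gave 11 higher and 5 lower (24.4% and 18.2%). In todPGCLCs against tcESCs, 5 were higher and 1 lower (18.1% and 11.2%). Between SCLCs and todPGCLCs, 10 were higher and 5 lower in SCLCs (19.5% and 18.5%). As shares of the 33 members, the genes called lower and higher in tc;Sf1ESCs were 12.1% and 0%. The shares higher and lower were 27.3% and 15.2% in SCLCs against tc;Sf1ESCs, 33.3% and 15.2% against tcESCs, and 30.3% and 15.2% against todPGCLCs, and 15.2% and 3.03% in todPGCLCs against tcESCs. Whether these shares differ from those of all genes was not tested. The median log2 fold change of the tested members was -0.01, 0.39, 0.61, -0.05 and 0.37 in these 5 comparisons, in the order given, beside 0, 0.02, 0.05, 0.03 and -0.01 over all tested genes. The comparisons share libraries, so their counts are not independent. Of the 38 members, 23 were called at least once, and in each of the 55 calls the libraries of the groups did not overlap. Of the 37 members with any count, 21 had their highest mean level in SCLCs, 8 in todPGCLCs, 7 in tcESCs and 1 in tc;Sf1ESCs.

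**Figure D1:**
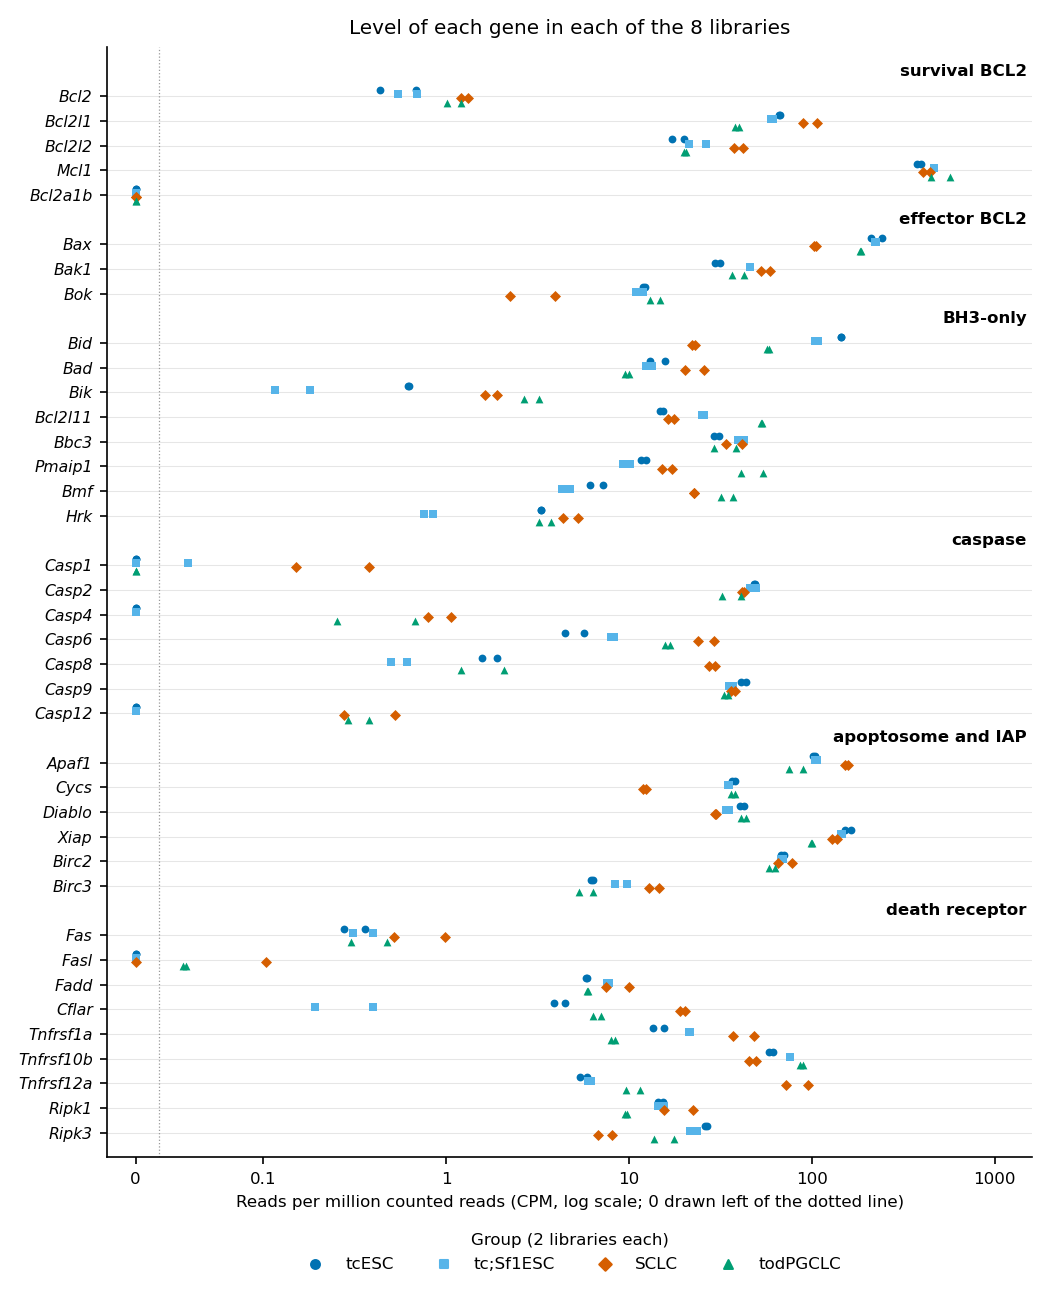
Level of each of the 38 genes in the 8 libraries, in CPM on a log axis, by class; each point is a library, coloured by group, and counts of 0 are drawn left of the dotted line. Casp8, Cflar and Tnfrsf12a stand apart in SCLCs on the high side, and Bok, Bid and Cycs on the low side, while Mcl1 lies between 375 and 570 CPM in all 8 libraries.

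The survival members were led by Mcl1, whose product holds BIM, NOXA and BAK. Levels of different genes are compared here per length, as TPM (the share of a library's transcripts, per length) over the merged exons of GENCODE M21. Mcl1 made up 85.7% of the summed TPM of the survival class in tcESCs, 87.9% in tc;Sf1ESCs, 80.2% in SCLCs and 91.8% in todPGCLCs. Its level was 375 and 394 CPM in tcESCs, 463 and 463 CPM in tc;Sf1ESCs, 441 and 405 CPM in SCLCs and 570 and 449 CPM in todPGCLCs. Mcl1 was called in none of the 5 comparisons, with log2 fold changes between -0.13 and 0.33 (SE 0.11).

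Bcl2l1, which encodes BCL-XL, came next per length. It stood at 66.9 and 66.3 CPM in tcESCs, 60.0 and 61.0 CPM in tc;Sf1ESCs, 89.5 and 107 CPM in SCLCs and 38.1 and 40.1 CPM in todPGCLCs, an order in which no neighbouring groups overlapped. SCLCs exceeded todPGCLCs by 1.46 on the log2 scale (SE 0.09, adjusted p = 1.89e-06), and no other comparison of Bcl2l1 was called. The ratio of Mcl1 to Bcl2l1 in TPM was 15.0 and 20.1 in todPGCLCs, against 5.10 and 6.61 in SCLCs and 7.53 to 10.4 in ESCs.

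Bcl2l2 (BCL-W) had 20.1 and 17.1 CPM in tcESCs, 26.3 and 21.4 CPM in tc;Sf1ESCs, 37.7 and 42.2 CPM in SCLCs and 19.9 and 20.4 CPM in todPGCLCs. It was higher in SCLCs than in tcESCs (log2 fold change 1.17, SE 0.13, adjusted p = 4.53e-05) and than in todPGCLCs (1.12, adjusted p = 7.09e-05), the latter not with library totals in place of TMM (0.99). A share of 13.3% of its exonic bases lies in Gm20521 on the same strand. Bcl2 itself was scarce, with 0.433 and 0.684 CPM in tcESCs, 0.694 and 0.542 CPM in tc;Sf1ESCs, 1.32 and 1.20 CPM in SCLCs and 1.02 and 1.20 CPM in todPGCLCs. It was called higher in SCLCs than in tcESCs (1.21, SE 0.33, adjusted p = 0.00923) and than in tc;Sf1ESCs (1.07, adjusted p = 0.0162). Both calls were lost in DESeq2 (adjusted p = 0.0582 and 0.091) and without 1 library, tcESC replicate 1 for the first (0.90, adjusted p = 0.0736) and tc;Sf1ESC replicate 2 for the second (0.89, adjusted p = 0.113). Bcl2a1b had no count in any library, which allows at most 0.118 CPM in the shallowest, and 79.2% of its 50-base stretches also occur in Bcl2a1d, Gm29094 or Bcl2a1a, whose shared reads the counting would have set aside.

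Among the effectors, Bax and Bok were lower in SCLCs and Bak1 was not. BAX and BAK are the proteins that perforate the outer membrane, and BOK is their less studied relative. Bax had 210 and 241 CPM in tcESCs, 223 and 221 CPM in tc;Sf1ESCs, 105 and 103 CPM in SCLCs and 183 and 186 CPM in todPGCLCs. The SCLC libraries lay below all others, at -1.06 against tcESCs (SE 0.07, adjusted p = 2.17e-06) and -1.05 against tc;Sf1ESCs (adjusted p = 2.34e-06). These changes sit at the fold limit: without tcESC replicate 2 the first is -0.99 and is no longer called.

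Bok had 12.3 and 12.0 CPM in tcESCs, 11.0 and 12.0 CPM in tc;Sf1ESCs, 3.92 and 2.23 CPM in SCLCs and 13.1 and 14.8 CPM in todPGCLCs. It was lower in SCLCs than in each other group, by 2.05 on the log2 scale against todPGCLCs (SE 0.23, adjusted p = 5.53e-05) and by 1.86 and 1.92 against the ESC groups. Bak1 moved the other way, from 29.6 and 31.6 CPM in tcESCs to 45.6 and 46.2 CPM in tc;Sf1ESCs and 52.8 and 59.3 CPM in SCLCs, with 36.7 and 42.7 CPM in todPGCLCs, and stayed under the fold limit (0.94 at most, SE 0.10, SCLCs against tcESCs). Exons of Ggnbp1 on the opposite strand cover 25.5% of those of Bak1. The ratio of Bax to Bak1 in TPM was 10.9 and 11.7 in tcESCs, 7.48 and 7.31 in tc;Sf1ESCs, 3.03 and 2.65 in SCLCs and 7.63 and 6.66 in todPGCLCs. Bax was nevertheless the most abundant effector per length in each group, with 72.6% of the class in SCLCs and 83.0% to 88.1% elsewhere. Over the classes, summed survival TPM divided by summed effector TPM was 0.847 and 0.774 in tcESCs, 0.928 and 0.926 in tc;Sf1ESCs, 1.73 and 1.66 in SCLCs and 1.30 and 1.01 in todPGCLCs.

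**Figure D2:**
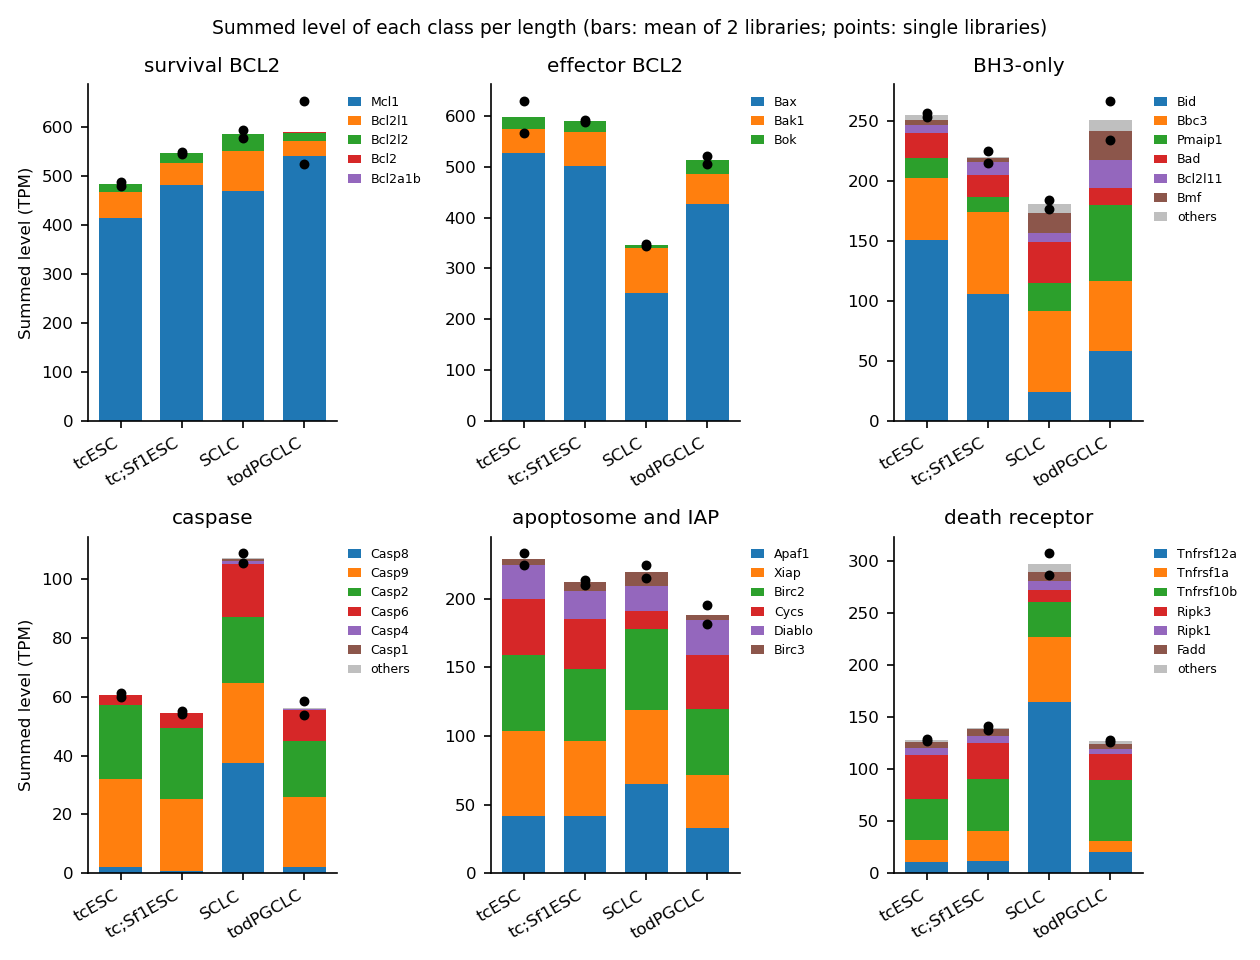
Summed TPM of each of the 6 classes in the 4 groups; stacked bars are the mean of 2 libraries split by gene, and points are the sums of the single libraries. Mcl1 and Bax fill most of their classes, Bid shrinks from 59.0% of the BH3-only sum in tcESCs to 13.4% in SCLCs, and Tnfrsf12a makes up 55.2% of the sum of the class listed as death receptors in SCLCs.

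The BH3-only class changed in make-up more than in sum, which was 253 and 256 TPM in tcESCs, 225 and 215 TPM in tc;Sf1ESCs, 184 and 177 TPM in SCLCs and 267 and 234 TPM in todPGCLCs. Bid, the bridge between the routes, led it in ESCs. Its level was 145 and 145 CPM in tcESCs, 108 and 104 CPM in tc;Sf1ESCs, 23.1 and 22.1 CPM in SCLCs and 58.0 and 56.5 CPM in todPGCLCs, and no groups overlapped. Bid was lower in SCLCs by 2.62 than in tcESCs (SE 0.07, adjusted p = 1.19e-08) and by 2.18 than in tc;Sf1ESCs, and lower in todPGCLCs by 1.41 than in tcESCs (SE 0.06, adjusted p = 6.84e-07). It was also lower in SCLCs than in todPGCLCs (-1.21, adjusted p = 8.59e-07). Bid is on chromosome 6, whose genes as a whole had medians of -0.31 in SCLCs and -0.29 in todPGCLCs against tcESCs, and 17.7% of its exonic bases face exons of Bcl2l13.

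The genes for BIM and NOXA were highest in todPGCLCs. Bcl2l11 had 15.3 and 14.9 CPM in tcESCs, 25.6 and 24.9 CPM in tc;Sf1ESCs, 16.3 and 17.7 CPM in SCLCs and 52.6 and 53.5 CPM in todPGCLCs. It was higher in todPGCLCs than in tcESCs by 1.74 (SE 0.09, adjusted p = 1.26e-06) and lower in SCLCs than in todPGCLCs (-1.51, adjusted p = 1.24e-06). Pmaip1, which encodes NOXA, had 11.7 and 12.4 CPM in tcESCs, 10.1 and 9.25 CPM in tc;Sf1ESCs, 17.2 and 15.2 CPM in SCLCs and 54.3 and 40.8 CPM in todPGCLCs. The difference between todPGCLCs and tcESCs was 1.91 (SE 0.15, adjusted p = 1.2e-05) and that between SCLCs and todPGCLCs -1.42 (adjusted p = 3.38e-05). Per length Pmaip1 was the leading BH3-only gene of todPGCLCs, with 25.1% of the class, beside 23.5% for Bid and 23.0% for Bbc3, and the ranges of the 3 genes over the 2 libraries overlap.

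Bmf and Bik were higher in both sorted groups. BMF is a BH3-only protein released from the cytoskeleton, and BIK sits at the endoplasmic reticulum. Bmf had 6.14 and 7.17 CPM in tcESCs, 4.74 and 4.30 CPM in tc;Sf1ESCs, 22.8 and 22.7 CPM in SCLCs and 31.7 and 36.8 CPM in todPGCLCs. Its largest differences were 2.38 between SCLCs and tc;Sf1ESCs (SE 0.14, adjusted p = 7.25e-07) and 2.29 between todPGCLCs and tcESCs (SE 0.13, adjusted p = 2.34e-06), with 1.83 between SCLCs and tcESCs. Bik was at a low level throughout, with 0.63 and 0.619 CPM in tcESCs, 0.116 and 0.181 CPM in tc;Sf1ESCs, 1.62 and 1.89 CPM in SCLCs and 3.23 and 2.67 CPM in todPGCLCs. The tc;Sf1ESC libraries held 3 and 5 counts of it. Bik was lower in tc;Sf1ESCs than in tcESCs (-2.02, SE 0.42, adjusted p = 0.00678), a call that is lost without tc;Sf1ESC replicate 1 (-1.77, adjusted p = 0.059), and higher in SCLCs than in tc;Sf1ESCs (3.57, SE 0.37, adjusted p = 2.71e-05). Against tcESCs it was higher by 1.55 in SCLCs and by 2.16 in todPGCLCs.

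The BH3-only gene Hrk (Harakiri) had 3.31 and 3.29 CPM in tcESCs, 0.849 and 0.759 CPM in tc;Sf1ESCs, 5.28 and 4.37 CPM in SCLCs and 3.74 and 3.20 CPM in todPGCLCs. The tc;Sf1ESC libraries lay below all others, at -2.02 against tcESCs (SE 0.24, adjusted p = 0.000422), and SCLCs were higher than tc;Sf1ESCs by 2.62 (SE 0.24, adjusted p = 1.1e-05). Bad, whose protein is held inactive by growth factor signals, had 13.1 and 15.7 CPM in tcESCs, 12.3 and 13.4 CPM in tc;Sf1ESCs, 20.2 and 25.8 CPM in SCLCs and 9.48 and 10.1 CPM in todPGCLCs. It was called once, higher in SCLCs than in todPGCLCs (1.37, SE 0.16, adjusted p = 6.17e-05), and 20.5% of its exonic bases face exons of Gpr137. Bbc3, which encodes PUMA and is a classical target of p53, ranged from 29.3 to 42.4 CPM and was called in no comparison.

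Among the caspases, caspase 8, the initiator of the receptor route, was low in ESCs and todPGCLCs and high in SCLCs. Casp8 had 1.89 and 1.56 CPM in tcESCs, 0.501 and 0.614 CPM in tc;Sf1ESCs, 29.5 and 27.4 CPM in SCLCs and 1.20 and 2.07 CPM in todPGCLCs. SCLCs exceeded tc;Sf1ESCs by 5.70 on the log2 scale (SE 0.27, adjusted p = 2.59e-07) and todPGCLCs by 4.25 (SE 0.24, adjusted p = 9.85e-07), with 4.10 against tcESCs. Casp8 was also lower in tc;Sf1ESCs than in tcESCs (-1.60, SE 0.32, adjusted p = 0.00557), whereas tcESCs and todPGCLCs overlapped. Per length it made up 34.9% of the caspase sum in SCLCs, which was 106 and 109 TPM, against 53.7 to 61.4 TPM in the other 6 libraries.

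Cflar too was lowest in tc;Sf1ESCs and highest in SCLCs, and its difference between these groups was the largest of any member. Its product c-FLIP resembles caspase 8 but lacks its active site. It had 4.49 and 3.88 CPM in tcESCs, 0.193 and 0.397 CPM in tc;Sf1ESCs (5 and 11 counts), 19.1 and 20.1 CPM in SCLCs and 6.32 and 7.04 CPM in todPGCLCs, and no groups overlapped. Cflar was lower in tc;Sf1ESCs than in tcESCs by 3.77 (SE 0.28, adjusted p = 5.09e-05), the largest decrease of any member in that comparison, and higher in SCLCs than in tc;Sf1ESCs by 6.06 (SE 0.26, adjusted p = 1.49e-07). Against tcESCs and todPGCLCs the SCLCs were higher by 2.29 and 1.69. The ratio of Cflar to Casp8 in TPM was 0.542 and 0.566 in tcESCs, 0.0878 and 0.148 in tc;Sf1ESCs, 0.147 and 0.168 in SCLCs and 1.20 and 0.776 in todPGCLCs, so that Casp8 exceeded Cflar per length in every library but todPGCLC replicate 1. These ratios rest on merged exons, 12669 bases for Cflar and 2893 bases for Casp8, and would shift with the isoforms in use.

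The 2 genes are neighbours in the genome (GRCm38). Cflar lies on the plus strand at chr1:58711508-58758884 and Casp8 on the same strand at chr1:58795374-58847503, with 36.5 kb between them. Within 500 kb of the stretch, 15 other genes were tested. Between tc;Sf1ESCs and tcESCs 0 of them were called, and their log2 fold changes ran from -0.74 to 0.53 with a median of -0.08. Between SCLCs and tc;Sf1ESCs 3 were higher and 2 lower, between -1.34 and 2.42 with a median of 0.15. The differences of Cflar and Casp8 thus lay outside the range of those neighbours in both comparisons.

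**Figure D3:**
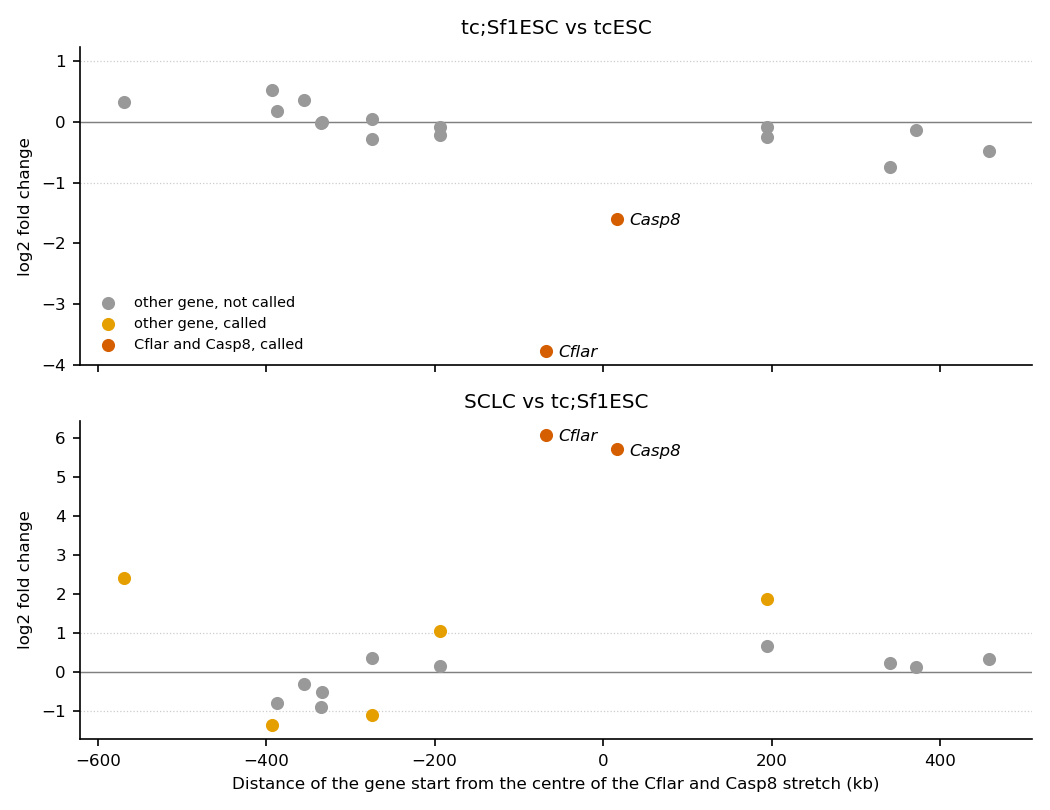
Log2 fold change of the tested genes within 500 kb of Cflar and Casp8 against the distance of their start from the centre of the stretch, in kb; each point is a gene, and dotted lines mark the fold limit. In tc;Sf1ESCs against tcESCs Cflar (-3.77) and Casp8 (-1.60) lie below the 15 other genes, and in SCLCs against tc;Sf1ESCs they lie above them at 6.06 and 5.70.

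Promoter windows of RefSeq (GRCm38.p6, 250 bases before to 50 after an annotated start, 5′ to 3′) were available for 35 of the 38 members, with 48 windows in all; Bik, Pmaip1 and Tnfrsf10b had no entry. The windows shown are those of 3 genes that were lower in tc;Sf1ESCs and of Tnfrsf12a, the receptor gene with the largest rise in SCLCs. Capitals mark CpG dinucleotides, the sites of DNA methylation, which was not measured. The annotated starts in the Casp8 and Hrk windows lie 7.13 and 5.12 kb inside the GENCODE gene models, so other starts exist.
Casp8 (chr1:58802252-58802551, plus strand): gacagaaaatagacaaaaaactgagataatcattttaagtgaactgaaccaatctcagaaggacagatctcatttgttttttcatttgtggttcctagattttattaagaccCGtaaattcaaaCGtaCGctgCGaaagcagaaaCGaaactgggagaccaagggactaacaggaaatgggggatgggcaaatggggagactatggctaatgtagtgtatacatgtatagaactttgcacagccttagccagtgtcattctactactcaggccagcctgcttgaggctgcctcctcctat
Cflar (chr1:58711241-58711540, plus strand): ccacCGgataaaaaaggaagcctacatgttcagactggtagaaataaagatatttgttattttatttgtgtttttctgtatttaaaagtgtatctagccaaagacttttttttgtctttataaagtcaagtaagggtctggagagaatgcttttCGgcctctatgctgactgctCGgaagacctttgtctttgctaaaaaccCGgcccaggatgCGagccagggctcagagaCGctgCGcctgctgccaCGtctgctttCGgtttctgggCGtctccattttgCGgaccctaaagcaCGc
Hrk (chr5:118169514-118169813, plus strand): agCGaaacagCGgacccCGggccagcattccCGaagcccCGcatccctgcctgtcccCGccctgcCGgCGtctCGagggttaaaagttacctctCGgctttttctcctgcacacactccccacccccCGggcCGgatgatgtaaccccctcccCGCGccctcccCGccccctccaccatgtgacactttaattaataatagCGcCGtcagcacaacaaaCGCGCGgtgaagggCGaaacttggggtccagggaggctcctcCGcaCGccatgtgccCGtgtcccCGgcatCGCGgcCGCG
Tnfrsf12a (chr17:23677400-23677699, minus strand): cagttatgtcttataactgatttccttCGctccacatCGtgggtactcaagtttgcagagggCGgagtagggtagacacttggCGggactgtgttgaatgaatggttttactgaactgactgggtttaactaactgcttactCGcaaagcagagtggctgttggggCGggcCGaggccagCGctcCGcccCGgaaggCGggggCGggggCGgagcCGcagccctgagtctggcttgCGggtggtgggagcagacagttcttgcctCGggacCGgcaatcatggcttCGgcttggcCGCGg
These windows hold 5, 12, 29 and 20 CpG dinucleotides, where the median was 19.5 over the members' windows and 7 over 32851 windows of all genes. The neighbours Cflar and Casp8 have AT-rich windows (45% and 42% G and C), unlike that of Hrk (65.7%). The letters bound by SF1, AAGGTCA on either strand, were in none of these 4 windows, in 1 of the 48 member windows (Bcl2l1) and in 4.72% of all windows. The AP-1 letters TGANTCA were in 2 member windows (Bcl2a1b and Fas) and in 7.81% of all. A window without a match says only that these letters are not in these 300 bases.

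Caspase 6, which cuts lamins, was the other caspase called. Casp6 had 4.49 and 5.67 CPM in tcESCs, 8.25 and 7.95 CPM in tc;Sf1ESCs, 23.8 and 29.1 CPM in SCLCs and 16.7 and 15.7 CPM in todPGCLCs, and no groups overlapped. It was higher by 2.44 in SCLCs than in tcESCs (SE 0.16, adjusted p = 1.54e-06), by 1.76 than in tc;Sf1ESCs, and by 1.59 in todPGCLCs than in tcESCs (adjusted p = 4.62e-05). Its chromosome 3 had a median of 0.18 and 0.14 in the comparisons of SCLCs and todPGCLCs with tcESCs. The initiators Casp9 (33.3 to 43.4 CPM) and Casp2 (32.3 to 49.8 CPM) were called in no comparison.

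Caspases 1, 4 and 12, the inflammatory subfamily, are encoded side by side on chromosome 9, and the gaps between their genes are 1.56 and 8.65 kb. In tcESCs and tc;Sf1ESCs they had 1 count in all, of Casp1. Casp4 had 28 and 23 counts in SCLCs and 7 and 18 in todPGCLCs, so its level was at least 8.24-fold higher in SCLCs than in tc;Sf1ESCs and at least 4.32-fold higher in todPGCLCs than in tcESCs, taking 3 counts per library as the floor. Without todPGCLC replicate 2 the latter bound is 2.36-fold. Casp12 had 14 and 8 counts in SCLCs and 8 and 10 in todPGCLCs, at least 3.58-fold and 3.09-fold higher in the same comparisons, of which the former is 2.45-fold without SCLC replicate 1. Casp1 had 4 and 11 counts in SCLCs and 0 in todPGCLCs, at least 2.38-fold higher, a bound that is 1.36-fold without SCLC replicate 2. All stayed at or below 1.06 CPM and were under the count limit, so no test was made of them in the main fit.

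**Figure D4:**
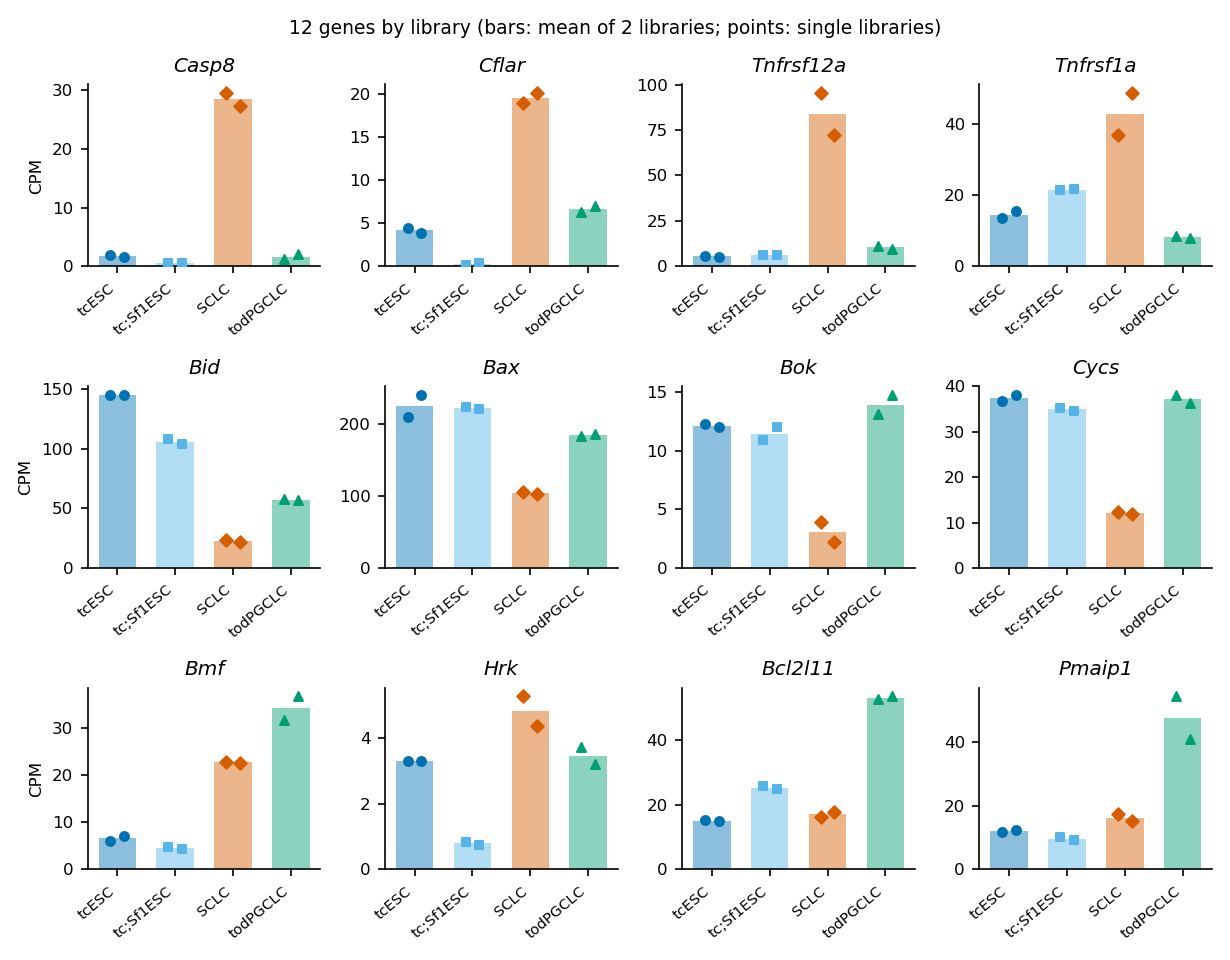
Level of 12 members in CPM in the 4 groups; bars are the mean of 2 libraries and points are single libraries. Casp8, Cflar, Tnfrsf12a and Tnfrsf1a are highest in SCLCs, Bid, Bax, Bok and Cycs are lowest there, and Bcl2l11, Pmaip1 and Bmf are highest in todPGCLCs.

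Downstream of mitochondria, the gene for cytochrome c was lower in SCLCs, while its partner Apaf1 was called higher there only against todPGCLCs. Cycs had 36.8 and 38.2 CPM in tcESCs, 35.2 and 34.6 CPM in tc;Sf1ESCs, 12.3 and 11.9 CPM in SCLCs and 38.2 and 36.3 CPM in todPGCLCs. It was lower in SCLCs than in tcESCs by 1.57 (SE 0.08, adjusted p = 5e-07), with -1.48 and -1.49 against tc;Sf1ESCs and todPGCLCs. Of its 50-base stretches, 26.2% recur in pseudogenes, so its level is uncertain. Apaf1 had 104 and 101 CPM in tcESCs, 105 and 106 CPM in tc;Sf1ESCs, 153 and 157 CPM in SCLCs and 89.5 and 75.1 CPM in todPGCLCs. It was called higher in SCLCs than in todPGCLCs at the fold limit (1.04, SE 0.09, adjusted p = 8.27e-06), and not without todPGCLC replicate 2 (0.92) or with library totals in place of TMM (0.91). Against tcESCs and tc;Sf1ESCs its log2 fold changes of 0.66 and 0.60 in SCLCs stayed under the fold limit. The ratio of Apaf1 to Casp9 in TPM was 2.42 and 2.38 in SCLCs and between 1.30 and 1.72 in the other 6 libraries.

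Inhibitors of apoptosis proteins (IAPs) bind caspases or tag signalling partners with ubiquitin, and of Birc2, Birc3 and Xiap, the IAP genes among the 38 members, Birc3 was the one called. Birc3 (cIAP2) had 6.22 and 6.39 CPM in tcESCs, 8.41 and 9.72 CPM in tc;Sf1ESCs, 12.8 and 14.5 CPM in SCLCs and 5.30 and 6.33 CPM in todPGCLCs. SCLCs were higher than tcESCs by 1.18 (SE 0.16, adjusted p = 0.000146) and than todPGCLCs by 1.37 (adjusted p = 7.27e-05). Its neighbour Birc2 (cIAP1), 11.6 kb away, ranged from 58.3 to 77.5 CPM, and Xiap from 99.2 to 164 CPM. Diablo, whose product removes IAPs from caspases, ranged from 29.4 to 43.5 CPM, an uncertain level, since 37.3% of its 50-base stretches recur elsewhere and 23.5% of its exonic bases face exons of other genes. None of these 3 was called.

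The class listed as death receptors also holds adaptors and kinases. Its sum rose in SCLCs to 308 and 287 TPM, where the other 6 libraries held 126 to 141 TPM. Most of that was Tnfrsf12a, the receptor FN14 of the cytokine TWEAK, so the sum is not a level of receptors that recruit FADD. Tnfrsf12a had 5.86 and 5.38 CPM in tcESCs, 6.21 and 6.00 CPM in tc;Sf1ESCs, 95.2 and 72.2 CPM in SCLCs and 11.4 and 9.60 CPM in todPGCLCs. SCLCs were higher than tcESCs by 3.96 (SE 0.16, adjusted p = 1.13e-07), than tc;Sf1ESCs by 3.82 and than todPGCLCs by 3.12 (SE 0.15, adjusted p = 4.94e-07). The SCLC libraries lay above the other 6 without overlap. The sum of the dissociation transcripts given above was highest in the same libraries, and a link was not tested. Fos, Jun, Egr1, Atf3, Hspa1a and Hspa1b were highest there. Dnajb1 (135 and 150 CPM) overlapped tc;Sf1ESCs (132 and 137 CPM), and Ier2 (92.3 and 71.5 CPM) was highest in tc;Sf1ESCs (146 and 145 CPM).

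Tnfrsf1a encodes TNF receptor 1, which carries a death domain. It had 13.5 and 15.5 CPM in tcESCs, 21.3 and 21.6 CPM in tc;Sf1ESCs, 36.8 and 48.5 CPM in SCLCs and 8.42 and 8.02 CPM in todPGCLCs, and no groups overlapped. SCLCs were higher than todPGCLCs by 2.51 (SE 0.15, adjusted p = 1.46e-06) and than tcESCs by 1.61 (SE 0.14, adjusted p = 1.06e-05). The call against tc;Sf1ESCs (1.04, adjusted p = 0.000153) is lost without SCLC replicate 2 (0.83) and with library totals (0.99). Tnfrsf1a is on chromosome 6, and subtracting that chromosome's median takes the same call to 0.98. Fas, a receptor with a death domain, was near the detection limit, with 0.275 and 0.359 CPM in tcESCs, 0.309 and 0.397 CPM in tc;Sf1ESCs, 0.981 and 0.516 CPM in SCLCs and 0.472 and 0.301 CPM in todPGCLCs. It was called higher in SCLCs than in tcESCs (1.26, SE 0.46, adjusted p = 0.0325), a call lost in DESeq2 (adjusted p = 0.16) and without tcESC replicate 1, tcESC replicate 2 or SCLC replicate 1 (0.75 to 1.44). Its ligand Fasl had 3 counts in SCLC replicate 2, 1 in each todPGCLC library and 0 in the other 5. Tnfrsf10b, the mouse TRAIL receptor, ranged from 45.2 to 89.8 CPM and was called in no comparison. The ratio of Tnfrsf12a to Tnfrsf10b in TPM was 5.44 and 4.51 in SCLCs and 0.223 to 0.359 in the other 6 libraries.

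The kinases RIPK1 and RIPK3 join these receptors, and their genes were called in different comparisons. Ripk3, needed for necroptosis, had 25.9 and 26.6 CPM in tcESCs, 23.6 and 21.6 CPM in tc;Sf1ESCs, 6.79 and 8.11 CPM in SCLCs and 13.8 and 17.6 CPM in todPGCLCs, and no groups overlapped. It was lower in SCLCs than in tcESCs by 1.75 (SE 0.15, adjusted p = 8.05e-06) and than in tc;Sf1ESCs by 1.55 (adjusted p = 1.74e-05). Ripk1 had 15.4 and 14.4 CPM in tcESCs, 15.5 and 14.5 CPM in tc;Sf1ESCs, 15.6 and 22.4 CPM in SCLCs and 9.73 and 9.53 CPM in todPGCLCs. It was called higher in SCLCs than in todPGCLCs (1.12, SE 0.17, adjusted p = 0.000403), but not without SCLC replicate 2 (0.84) or with library totals (0.98). The adaptor Fadd ranged from 5.80 to 10.04 CPM and was called in no comparison.

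**Figure D5:**
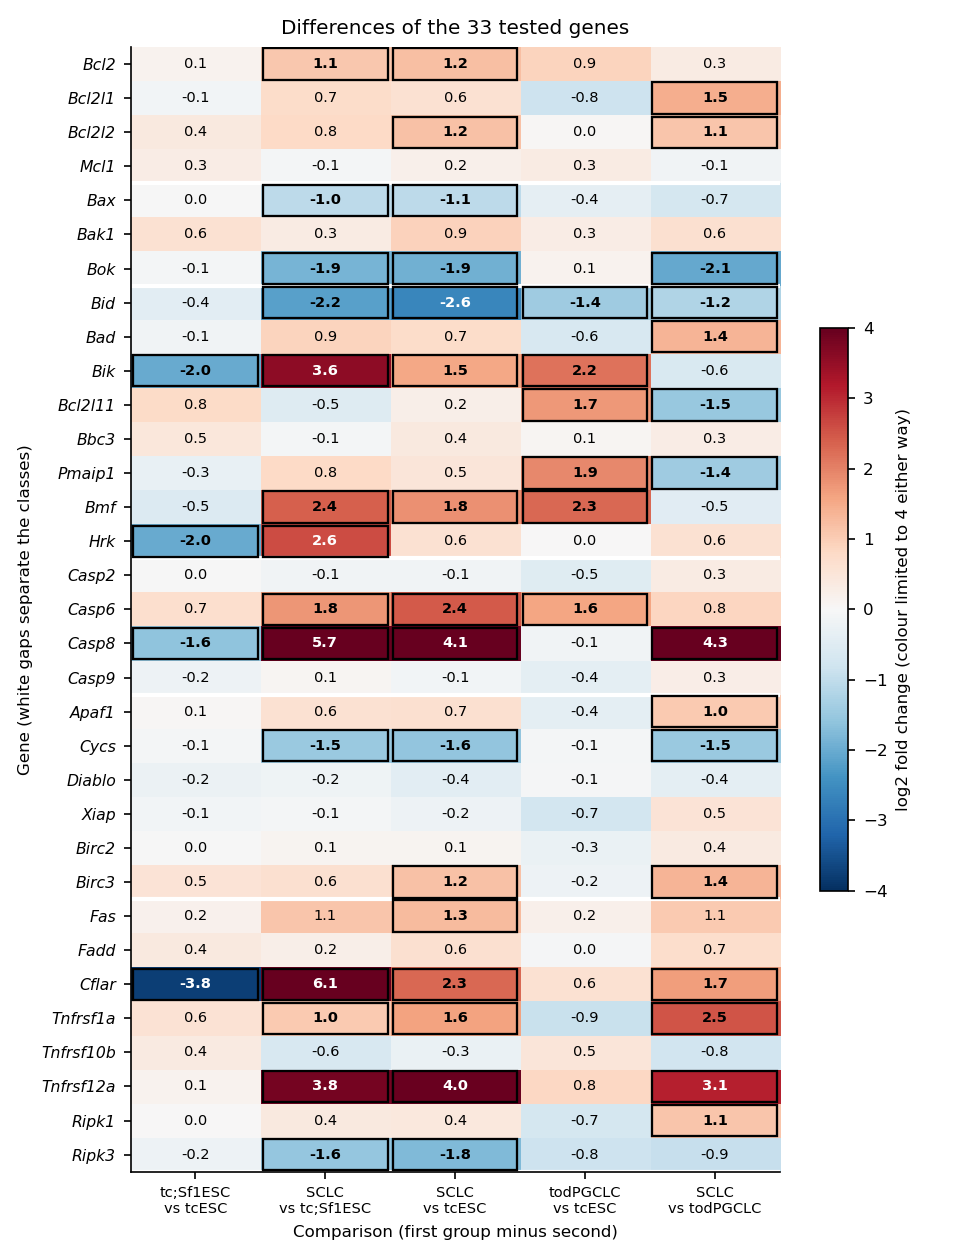
Log2 fold change of the 33 tested genes in the 5 comparisons, first group minus second; red is higher, blue is lower, and outlined bold cells passed a fold change greater than 2 with an adjusted p under 0.05. The 4 calls of tc;Sf1ESCs against tcESCs are all lower (Bik, Hrk, Casp8 and Cflar), and each of these genes is outlined in red in SCLCs against tc;Sf1ESCs.

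A further 76 genes of the pathway were listed, of which 75 were found and 67 tested. Between tc;Sf1ESCs and tcESCs 2 were higher and 1 lower, between SCLCs and tc;Sf1ESCs 16 and 20, between SCLCs and tcESCs 18 and 19, between todPGCLCs and tcESCs 11 and 6, and between SCLCs and todPGCLCs 13 and 14, against the shares of all genes given above. Of the 17 tested genes of the p53 axis, 0 were higher and 10 lower in SCLCs than in tc;Sf1ESCs, where 24.2% and 18% of all genes were. The median of the 17 was -1.13 beside 0.02 over all genes. DESeq2 called 0 higher and 9 lower there, and 0 were higher at an unadjusted p under 0.05 in edgeR. Against tcESCs 1 was higher and 7 lower (24.4% and 18.2% of all genes), and against todPGCLCs 0 were higher and 5 lower (19.5% and 18.5%). Trp53 itself had 362 and 348 CPM in tcESCs, 372 and 368 CPM in tc;Sf1ESCs, 83.5 and 60.0 CPM in SCLCs and 457 and 474 CPM in todPGCLCs, and was lower in SCLCs than in tc;Sf1ESCs by 2.32 (SE 0.13, adjusted p = 6.4e-07). Its relative Trp73 had 19.8 and 18.2 CPM in tc;Sf1ESCs and 1.92 and 0.962 CPM in SCLCs (-3.68, SE 0.26, adjusted p = 2.68e-06). In todPGCLCs Trp73 and Cdkn1a, the p21 gene, were lower than in tcESCs by 2.24 and 1.45, and 1 of the 17 genes was higher and 3 were lower (18.1% and 11.2% of all genes).

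Among 9 tested genes of the other BCL2 family, Bnip3, a mitophagy receptor induced by hypoxia, changed most. It had 6.49 and 8.57 CPM in tcESCs, 11.1 and 8.78 CPM in tc;Sf1ESCs, 342 and 216 CPM in SCLCs and 144 and 112 CPM in todPGCLCs. Bnip3 was higher than in tcESCs by 5.26 in SCLCs (SE 0.27, adjusted p = 3.53e-07) and by 4.002 in todPGCLCs (SE 0.26, adjusted p = 4.17e-06), and 2 of the 9 were higher and 2 lower in SCLCs than in tc;Sf1ESCs (24.2% and 18% of all genes). Bcl2l14 was lower in SCLCs than in todPGCLCs by 1.93 and than in the ESC groups by 1.33 and 1.44. Bcl2l15, named after its values were seen, was the call of this list in tc;Sf1ESCs, higher than in tcESCs by 2.14 (11 and 17 counts in tcESCs, 60 and 57 in tc;Sf1ESCs, adjusted p = 0.00226). Of 11 other caspases and substrates, 3 were higher and 5 lower in SCLCs than in tc;Sf1ESCs, beside the same shares of all genes (24.2% and 18%). The pore protein gene Gsdmd, a substrate of the inflammatory caspases, had 4.24 and 4.26 CPM in tc;Sf1ESCs and 27.7 and 28.4 CPM in SCLCs (2.76, SE 0.14, adjusted p = 3.47e-07), and Il18, a cytokine they mature, had 106 and 198 counts in SCLCs (adjusted p = 1.86e-05 against tc;Sf1ESCs), where the ESC libraries held 0 to 2 counts and a fold is not given. It was also called higher in todPGCLCs (5 and 10 counts, adjusted p = 0.0275), a call lost without either tcESC library or without todPGCLC replicate 2. In todPGCLCs the adaptor Pycard was lower than in tcESCs by 1.01, at the fold limit, and it is not called with library totals (-0.94) or without todPGCLC replicate 1 (-0.99).

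Of 12 other IAPs and mitochondrial proteins, 6 were higher and 1 lower in SCLCs than in tc;Sf1ESCs, where 24.2% and 18% of all genes were. Naip2 and Naip5, sensors of the inflammasome whose gene copies resemble each other, were at or under 0.188 CPM outside SCLCs, where they had 4.57 and 6.12 CPM and 11.4 and 16.6 CPM. Naip2 was at least 47.7-fold higher in SCLCs than in tc;Sf1ESCs, which had no count of it. The testis cytochrome c gene Cyct had 7.20 and 8.12 CPM in tcESCs, 1.70 and 1.41 CPM in tc;Sf1ESCs and 57.2 and 55.5 CPM in todPGCLCs, where it was higher than in tcESCs by 2.80 (SE 0.34, adjusted p = 0.000141), and it was lower in tc;Sf1ESCs than in tcESCs by 2.29 (SE 0.43, adjusted p = 0.00383). Sept4 was higher than in tcESCs by 3.25 in todPGCLCs and by 2.80 in SCLCs, and it lies on chromosome 11, whose genes had medians of 0.52 and -0.02 in these comparisons. Of 18 other genes of the receptor side, 5 were higher and 2 lower in SCLCs than in tc;Sf1ESCs, near those shares of all genes. Tnfaip3 (A20), a brake on signalling from TNF receptors, had 1.58 and 1.48 CPM in tc;Sf1ESCs and 25.2 and 19.6 CPM in SCLCs (3.91, SE 0.24, adjusted p = 9.82e-07). The neurotrophin receptor gene Ngfr fell from 12.3 and 12.6 CPM to 0.377 and 1.37 CPM (-3.75, SE 0.36, adjusted p = 1.71e-05). Tnfsf12, the TWEAK ligand of the receptor encoded by Tnfrsf12a, was higher than in tcESCs by 3.29 in todPGCLCs (SE 0.38, adjusted p = 0.00011) and by 3.38 in SCLCs (SE 0.39, adjusted p = 4.97e-05), with 8.19 and 6.22 CPM in SCLCs, 8.97 and 5.84 CPM in todPGCLCs and 0.325 to 0.849 CPM in ESCs. Traf1 was higher in todPGCLCs than in tcESCs by 3.12. Tnfsf10, which encodes TRAIL and was also named after its values were seen, had no count in the 4 ESC libraries, 65 and 87 counts in SCLCs and 15 and 19 in todPGCLCs, at least 24.3-fold higher in SCLCs than in tc;Sf1ESCs and at least 5.84-fold higher in todPGCLCs than in tcESCs. The adaptor gene Tradd was higher in tc;Sf1ESCs than in tcESCs by 1.33 (SE 0.15, adjusted p = 0.000304), though by 0.85 once the median of its chromosome is subtracted.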

How the data were processed

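RNA-seq of poly(A) RNA from 8 libraries, 2 per group, was analysed. The authors trimmed paired reads (Trim Galore), aligned them to GRCm38 with STAR 2.4.0 and counted them per Ensembl gene with HTSeq, and they deposited raw counts, 1 table per library. The annotation release and the strand setting of the counting are not given in the sources used here. Reads set aside by HTSeq, 20.5% to 27.5% of each table as multiply aligned, stayed out of library totals. Groups came from the sample titles, and the labels call the libraries biological duplicates.

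Counts were tested with edgeR 4.0.16 (quasi-likelihood, TMM, R 4.3.3, limma 3.58.1) in 1 fit of 4 groups, on 16707 genes with a mean count above 10, with Benjamini-Hochberg adjustment over all of them, and the fit left 4 residual degrees of freedom. All adjusted p-values in the text are from this fit unless DESeq2 1.42.0 is named. The fit was first tested on simulated counts. The text gives values for each member called at least once, ranges for the others, and from each further pathway list the 2 called genes with the largest change per comparison among those with a mean of at least 1 CPM. TPM were computed from the counts over merged GENCODE M21 exons. Alternatives were other scalings, filters, library subsets, DESeq2, stricter limits, a test against a 2-fold change, a replicate block, leaving out each library, and subtraction of chromosome medians. The members, lists and tests were chosen with earlier results of these data known.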

Additional observations from a re-analysis of the deposited data

How the results depend on the processing

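Of the 55 member calls, 42 were kept in every alternative other than leaving out a library, 47 were kept whichever library was left out, and 0 reversed. Calls were lost most often in a test against a 2-fold change (13 calls), followed by library totals in place of TMM (4), DESeq2 (3), chromosome medians subtracted (3), an adjusted p under 0.01 (2), the filterByExpr filter (1) and the fit of the 4 libraries compared (1). With size factors of the RLE kind and without a count limit 0 of the 55 calls were lost, and without todPGCLCs 0 of the 34 calls that do not involve them. The test against a 2-fold change left 2 of 33 members lower in tc;Sf1ESCs than in tcESCs, in place of 4 (1.69% of all genes, in place of 5.85%), and 7 members higher in SCLCs than in tcESCs, in place of 11 (19.1% of all genes, in place of 24.4%). Leaving out each library gave 1 to 2 members lower in todPGCLCs than in tcESCs. The rule for the further pathway lists took 41 calls, counting a gene once per comparison, of which 7 were lost in at least 1 alternative and 0 reversed: Bcl2l14 against both ESC groups, Cyct and Tradd in tc;Sf1ESCs, Il18 and Pycard in todPGCLCs, and Bnip3 between SCLCs and todPGCLCs. With 2 libraries per group the spread rests on few degrees of freedom, and levels under about 1 CPM rest on few counts. These are the levels of Fas, Fasl and Casp1 in all groups, of Casp4 and Casp12 in nearly all libraries with a count, of Bcl2 and Bik in ESCs, and of Casp8, Cflar and Hrk in tc;Sf1ESCs, so that each of the 4 calls between tc;Sf1ESCs and tcESCs has such a level on its lower side.

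The replicate numbers are shared between groups, but the deviations of libraries with the same number did not go together (r from -0.0259 to 0.0624 over 16707 genes), so the numbers were not taken as pairs. With the replicate block, 4 members were lower in tc;Sf1ESCs than in tcESCs, 9 were higher and 5 lower in SCLCs than in tc;Sf1ESCs, and 0 of the 55 calls were lost.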
